A study of Mus musculus with 3 samples.

Results

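Conventional (class II) myosin is the motor that pulls on actin filaments in contractile cells, and 10 genes of the smooth-muscle and non-muscle forms and of the enzymes that switch them on and off were followed here in cardiac myofibroblasts. They are the heavy chain genes Myh11, Myh9, Myh10 and Myh14, the regulatory light chain genes Myl9, Myl12a and Myl12b, the essential light chain gene Myl6, the light chain kinase gene Mylk and the phosphatase subunit gene Ppp1r12a. The genes were listed by name, and a probe was taken when its RefSeq transcript belonged to the gene. All 10 were measured, among 15393 genes in all, with 2 probes for Myh14, Myl6 and Ppp1r12a and 1 probe for each other member.

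RNA came from cardiac myofibroblasts of male C57BL/6J mice, whose left anterior descending coronary artery had been tied off for good 3 days before the hearts were taken. No genetic alteration is named in the labels, which give the age of the mice as 8 weeks and, in the surgical protocol, as 10 weeks. Heart cells were freed with collagenase type II and elastase and left overnight to attach to plastic, and those negative for CD45, a surface protein of leukocytes, were taken as myofibroblasts, so the cells are defined by what they lacked. Adherent cells had grown for a week on plastic plates, non-adherent cells had then spent a week in suspension in a plate that cells do not stick to, and re-adherent cells had been returned to plastic for another week. Each state had 1 array, made from RNA pooled over several hearts, so no spread between replicates exists and no test of a difference was made. The states were collected in sequence and many cells were lost in suspension per the methods of the study, so state, time in culture and survival cannot be told apart.

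A class II myosin holds a pair of heavy chains, which carry the motor, and a pair each of essential and regulatory light chains bound at the neck. Phosphorylation of the regulatory light chain by myosin light chain kinase switches the motor on, and myosin phosphatase, held to myosin by its targeting subunit, reverses it. Smooth muscle cells use the heavy chain of Myh11 with the light chain of Myl9, and most cells outside muscle use mainly the heavy chains of Myh9, Myh10 or Myh14 with the light chains of Myl12a and Myl12b. Myofibroblasts are known for actin bundles that contain myosin and smooth muscle α-actin, which attach to the substrate and pull on the matrix.

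The quantity measured was the background-subtracted brightness of each probe (processed signal, linear scale), given below as the scanner software wrote it. Differences between arrays are log2 differences of that signal after each array was set to its own 75th percentile, which was 651 on the adherent, 697 on the non-adherent and 541 on the re-adherent array, so a difference need not equal the ratio of the signals as printed. The technical error of a difference (in brackets as ± error) combines the errors that the software gave to both spots, and its median over all genes was 0.20. Probes spotted 10 times on each array gave a smaller error, with medians from 0.10 to 0.11. Neither covers the spread between animals or cultures. By the software's flags, each array had between 31994 and 35538 spots well above background among 59305 spots that were not controls, and none of the latter was saturated. Because probes differ in how brightly they bind, only changes and not levels are compared between genes.

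In suspension, 9 of the 10 members were lower than in adherent cells and 1 was higher, where 53.2% of all genes were lower. These 9 include Myh14, whose difference of −0.04 ± 0.21 lay within its technical error and turned positive with some settings. Over 2-fold lower were 6 members, Myl9, Myh11, Myl12a, Myh10, Mylk and Myh9, beside 14.7% of all genes measured, and no member was over 2-fold higher, beside 17.2% of all genes. The median over the members was −1.40 on the log2 scale and that over all genes −0.07. Myl9 and Myh11, the isoforms of smooth muscle, were the 2 members over 4-fold lower, beside 5.34% of all genes, and both were over 16-fold lower by their measured signals, beside 1.03% of all genes. On return to plastic, 6 members were over 2-fold higher than in suspension (3 without scaling between arrays), beside 15.6% of all genes, and none was over 2-fold lower, beside 16.3% of all genes. Their median was 1.21, against 0.08 over all genes, and 3 members were over 4-fold higher by their measured signals, beside 5.7% of all genes. Of these 3, Myl9 stayed over 4-fold under every way of processing tried. Myh11 was set against a dim spot that, with the software's background subtraction, supports only a bound of at least 3.09-fold. Myl12a, at 4.02-fold, fell below 4-fold with several scalings. Re-adherent and adherent cells differed less: 2 members, Myh11 and Mylk, were over 2-fold lower in re-adherent cells, beside 4.9% of all genes, none was over 2-fold higher, beside 4.84%, and the median over the members was −0.10 against 0.06 over all genes.

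**Figure D1:**
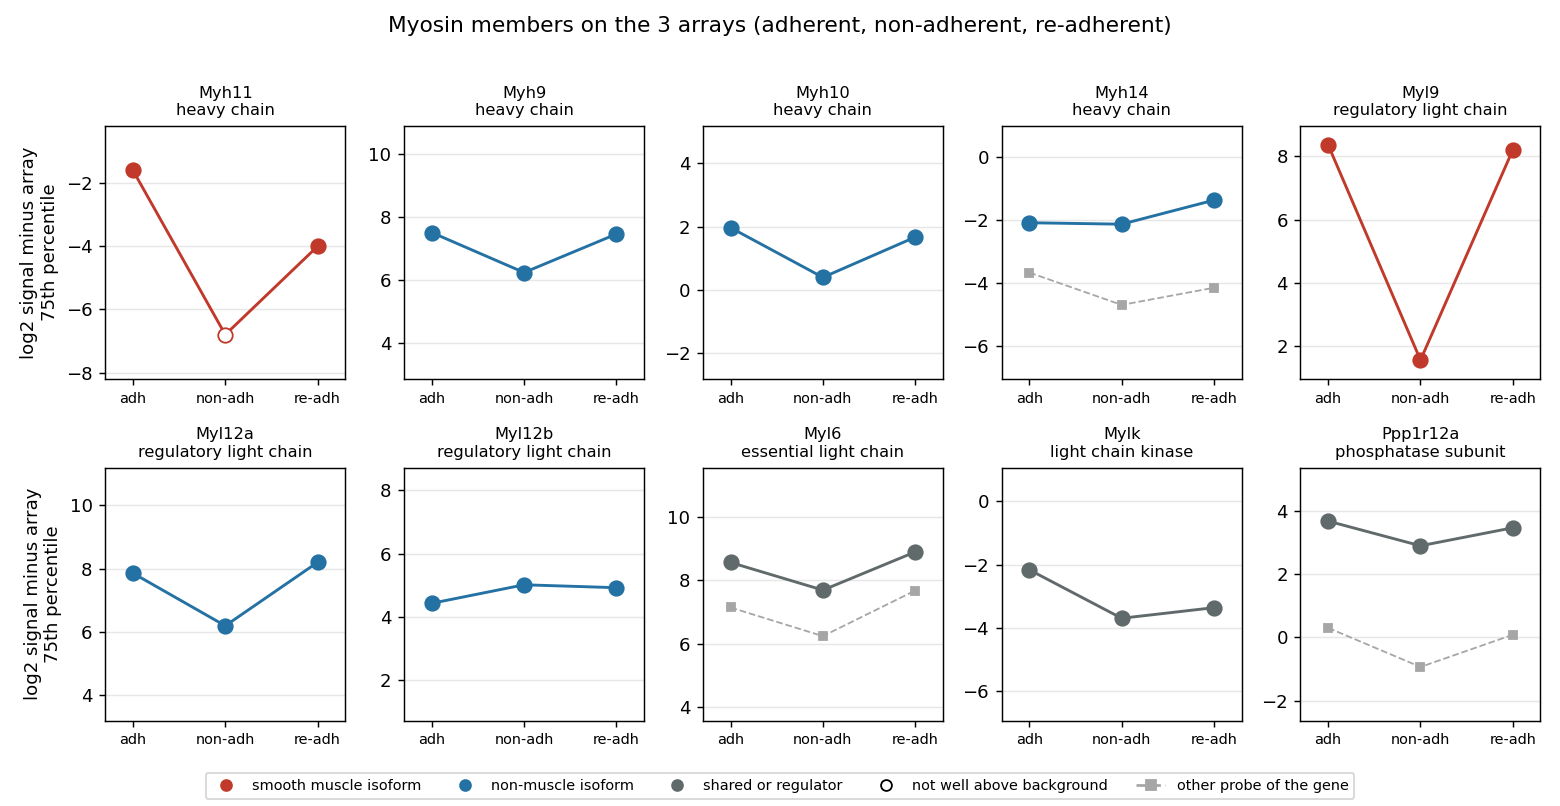
Level of each member on the adherent (adh), non-adherent (non-adh) and re-adherent (re-adh) arrays, as log2 processed signal minus the 75th percentile of the array (vertical axis, spanning the same number of log2 units in every panel). Each point is 1 array, grey squares are the other probe of a gene with 2 probes, and the open point of Myh11 was not well above background. Myl9 fell from 8.36 to 1.56 and stood at 8.20 on the re-adherent array, and Myh9 went from 7.50 to 6.24 and 7.45.

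Myl9 encodes the regulatory light chain of smooth muscle myosin (transcript NM_172118). Its RefSeq promoter holds a CArG box, the element bound by serum response factor, which is known to drive many genes of the smooth muscle contractile apparatus. The box is shown here in capitals because Myl9 had the largest differences of any member into suspension and back, in 30 bases at chr2:156775293-156775322 of GRCm38.p6 on the plus strand, where the box starts 161 bases before the start of the gene.
Myl9: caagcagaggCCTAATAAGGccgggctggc

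The Myl9 probe gave a processed signal of 213650 in adherent, 2053 in non-adherent and 159601 in re-adherent cells, all well above background. Both cultures on plastic were thus bright and the suspension culture was dim. Relative to the array percentile, the level was 111-fold lower in suspension than in adherent cells (log2 difference −6.80 ± 0.20), and 100-fold higher after return to plastic than in suspension (6.64 ± 0.20). Of all 15393 genes, Myl9 was among the 15 with the largest fall into suspension and among the 24 with the largest rise on return. Re-adherent cells had 89.8% of the adherent level, a log2 difference of −0.15 ± 0.20 that lies within its technical error as scaled here, but that ranged from −0.59 with spike-in scaling to −0.07 with median scaling.

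The non-muscle regulatory light chains differed from Myl9 and from each other. Myl12a (NM_026064) had a processed signal of 150751 in adherent, 50985 in non-adherent and 159244 in re-adherent cells, lowest in suspension. It was 3.16-fold lower in suspension (−1.66 ± 0.20) and 4.02-fold higher on return (2.01 ± 0.20), and re-adherent cells stood 0.35 ± 0.20 above adherent cells, a difference whose sign turned with spike-in scaling (−0.09). Myl12b (NM_023402), the neighbouring gene copy whose protein is nearly identical, gave 14061, 22568 and 16455 in the same order. Here the suspension culture was the highest. Myl12b was 1.50-fold higher there than in adherent cells (0.58 ± 0.20), the only member that was higher as scaled here. This difference kept its sign under every way of processing tried, from 0.28 to 0.68. The return to plastic changed it by −0.09 ± 0.20, or by −0.46 without scaling, and in re-adherent against adherent cells Myl12b was higher by 0.49 ± 0.20, which came to 0.06 under spike-in scaling. The sequences of these genes are alike and the probe sequences were not used here, so how far each probe also binds transcripts of the other copies was not tested.

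The promoter of Myl12a holds no CArG box in the window searched, but its first transcribed bases hold the letters GGAATG, or CATTCC on the other strand, the core of the element bound by TEAD factors, through which several cofactors of mechanical signalling act. It is printed, with those of Myh10 and Mylk below, for comparison with Myl9. The 30 bases lie at chr17:71002489-71002518 of GRCm38.p6 on the minus strand, and the motif in capitals begins 27 bases after the start.
Myl12a: tcgccgcgctctGGAATGcgggcagaggga

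Myl6 (NM_010860) encodes the essential light chain, which smooth-muscle and non-muscle myosins share. Its signal was 246684 in adherent, 144073 in non-adherent and 258488 in re-adherent cells. A second probe gave 91976, 52537 and 110929, so both were lowest in suspension. The brighter probe was 1.83-fold lower in suspension than in adherent cells (−0.87 ± 0.20) and 2.31-fold higher on return (1.21 ± 0.20), and the dimmer probe differed by −0.91 ± 0.20 and 1.44 ± 0.20. With quantile normalization the brighter probe differed by −0.36 and 0.40, which is under 2-fold on return. Re-adherent exceeded adherent cells by 0.33 ± 0.20 by the brighter and 0.54 ± 0.20 by the dimmer probe, though with spike-in scaling the brighter probe stood at −0.10. One of the listed promoters of Myl6 also holds a CArG box, at chr10:128493040-128493069 of GRCm38.p6 on the minus strand, with the box 50 bases before the start.
Myl6: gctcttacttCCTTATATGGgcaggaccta

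Of the 10 member promoters in the RefSeq table (9 genes, with none listed for Myh11), those of Myl9 and Myl6 held a CArG box, read on both strands over 250 bases before and 50 after the start. Over all 32851 promoters of the table, 1.63% held one. GGAATG or CATTCC was found in 3 of the 10 member promoters and in 14.7% of all promoters. A match of letters is a description of the sequence, and no binding was measured in these arrays. Myl9 and Myl6, which both hold a CArG box, differed by −6.80 and −0.87 between suspension and adherent cells. Whether the box has a part in either difference was not tested.

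Myh11 encodes the smooth muscle myosin heavy chain, the most specific of the members for differentiated smooth muscle cells. The probe (NM_001161775) had a processed signal of 213 in adherent, 6.24 in non-adherent and 33.6 in re-adherent cells, and the non-adherent spot was not well above background. Adherent cells were thus highest, re-adherent cells intermediate and suspension cells at the level of background. With the software's background subtraction, the level in adherent cells was at least 16.3-fold higher than in suspension. That in re-adherent cells was at least 3.09-fold higher. Both were measured against 14.0, the dimmest signal on the non-adherent array that still passed as well above background. The fitted differences, −5.19 ± 0.71 and 2.79 ± 0.73, include a dim spot and depend on how background was corrected. With normexp, another correction for background, they were −2.27 and 0.93, which are smaller changes than these bounds. Between re-adherent and adherent cells the spot was well above background on both arrays. Myh11 was 5.28-fold lower in re-adherent cells (−2.40 ± 0.26), which left 19.0% of the adherent level, or differed by −1.33 with normexp. Only 95 of the 15393 genes, Myh11 included, were as low or lower in this pair. It was the only member over 4-fold lower there, beside 1.29% of all genes.

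Non-muscle myosin heavy chain IIA, the product of Myh9 (NM_022410), is the main heavy chain of stress fibres in most adherent cells. Its processed signal was 117996 in adherent, 52578 in non-adherent and 94912 in re-adherent cells, so the suspension culture was lowest. Myh9 was 2.40-fold lower in suspension (−1.26 ± 0.20) and 2.32-fold higher on return (1.22 ± 0.20), or −0.90 and 0.54 with quantile normalization. Re-adherent and adherent cells differed by −0.05 ± 0.20, within the technical error as scaled here, but the value ranged from −0.48 with spike-in scaling to 0.04 with median scaling.

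Myh10 (NM_175260), for heavy chain IIB, gave 2542 in adherent, 916 in non-adherent and 1719 in re-adherent cells, with the same order of the cultures. It was 2.97-fold lower in suspension (−1.57 ± 0.20), 2.42-fold higher on return (1.27 ± 0.20), and stood below adherent cells at the end (−0.30 ± 0.20), with 81.3% of the adherent level. CATTCC lies 7 bases before the start of Myh10, at chr11:68691896-68691925 of GRCm38.p6 on the plus strand.
Myh10: gccaatgagcatCATTCCaggtgggtggag

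Heavy chain IIC is encoded by Myh14 (NM_028021), and its probes disagreed. By the brighter probe the signal was 153 in adherent, 158 in non-adherent and 208 in re-adherent cells, with suspension and adherent cells within the technical error (−0.04 ± 0.21, or 0.05 with the values of the authors) and a rise on return (0.76 ± 0.21). By the dimmer probe the signal was 51.2, 27.0 and 30.5, and suspension was below adherent cells (−1.02 ± 0.30), with a rise of 0.54 ± 0.36 on return. In re-adherent against adherent cells the probes had opposite signs, 0.71 ± 0.21 and −0.48 ± 0.33. No direction is therefore given for Myh14.

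**Figure D2:**
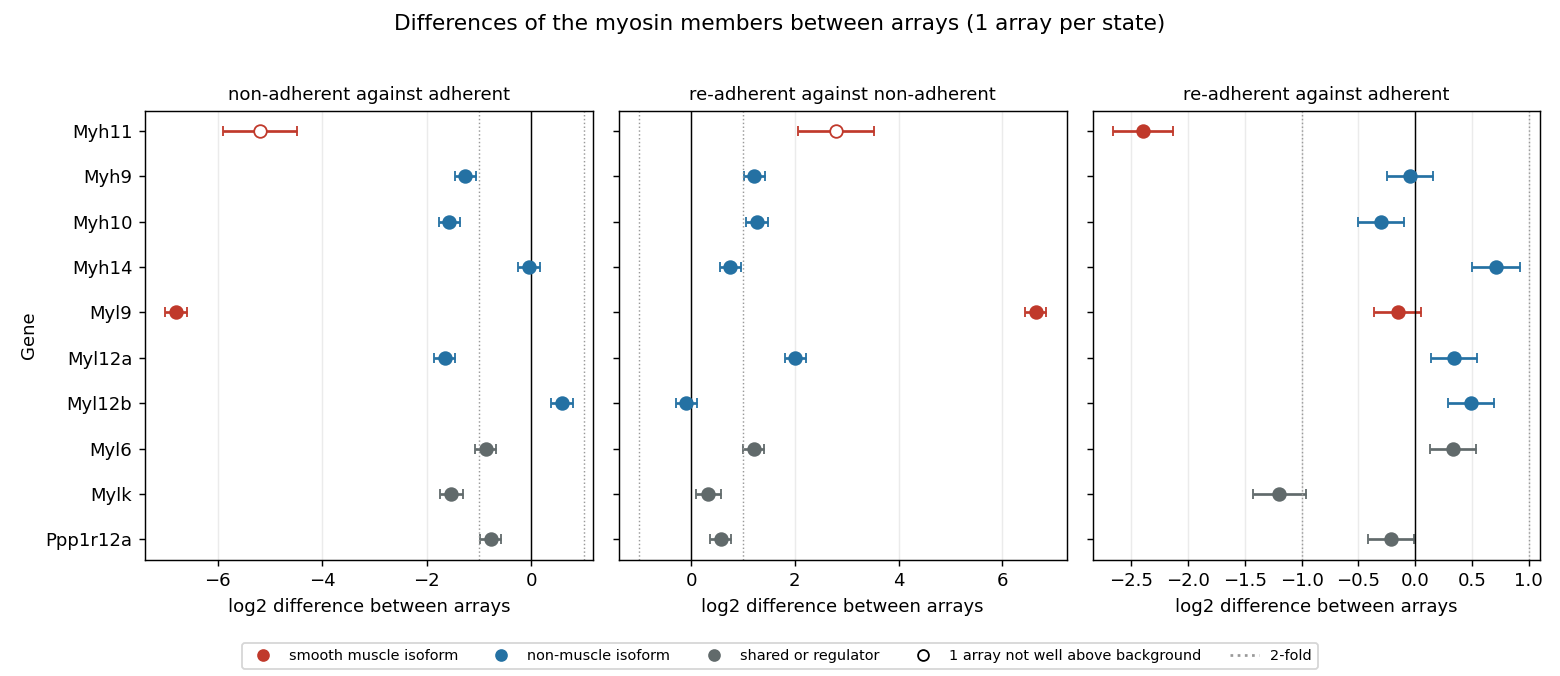
Log2 difference of each member between pairs of arrays (horizontal axes, each panel with its own range), with the technical error of the spots as bars and dotted lines at 2-fold. Open points are pairs in which 1 array was not well above background (Myh11). Myl9 lies at −6.80 and 6.64 in the left and middle panels and at −0.15 in the right panel, where Myh11 lies at −2.40.

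Myosin light chain kinase, the product of Mylk (NM_139300), phosphorylates the regulatory light chain in response to calcium and calmodulin. Its probe gave a processed signal of 145 in adherent, 53.7 in non-adherent and 52.6 in re-adherent cells, so that adherent cells were highest and the other cultures close to each other. Relative to the array percentile, Mylk was 2.89-fold lower in suspension (−1.53 ± 0.22). On return it differed from suspension by 0.33 ± 0.24, or −0.03 without scaling, and it remained 2.29-fold below adherent cells (−1.20 ± 0.23), with 43.7% of the adherent level. With normexp the falls into suspension and at the end were −0.95 and −0.63. A fall of that size in re-adherent against adherent cells was reached by 535 genes, or 3.48% of all. The Mylk promoter holds CATTCC 158 bases before the start, at chr16:34784780-34784809 of GRCm38.p6 on the plus strand.
Mylk: tgcagttcagaaCATTCCctggtacgtgca

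Ppp1r12a (NM_027892) encodes the subunit that targets myosin phosphatase to myosin, the opponent of the kinase. Its brighter probe gave 8337 in adherent, 5198 in non-adherent and 5993 in re-adherent cells, and its dimmer probe 803, 365 and 575, both lowest in suspension. The brighter probe was 1.72-fold lower in suspension (−0.78 ± 0.20) and 1.48-fold higher on return (0.57 ± 0.20), while the dimmer probe moved farther, by −1.23 ± 0.20 and 1.02 ± 0.21. Both stood slightly below the adherent level at the end, at −0.21 ± 0.20 and −0.22 ± 0.20.

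The smooth-muscle and non-muscle forms were then compared by the difference between their changes, which asks whether suspension changed the isoforms unequally. For the regulatory light chains the gap was wide. Into suspension the ratio of Myl9 to Myl12a fell 35.2-fold (−5.14 ± 0.29 on the log2 scale) and that of Myl9 to Myl12b 167-fold (−7.38 ± 0.29). On return Myl9 rose more than Myl12a by 4.64 ± 0.29 and more than Myl12b by 6.74 ± 0.29. Against the mean of both non-muscle light chains the values were −6.26 ± 0.25 and 5.69 ± 0.25. Scaling by 1 constant per array cancels in such a comparison, and each of these genes has 1 probe, so most other settings could not move it. With quantile normalization the values were −6.41 and 5.79, and with normexp −6.24 and 5.70. In re-adherent against adherent cells the gap shrank to −0.57 ± 0.25.

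For the heavy chains the comparison is limited by the dim Myh11 spot. Myh11 fell farther into suspension than Myh9 by −3.93 ± 0.74 and farther than Myh10 by −3.62 ± 0.74, and rose more on return by 1.58 ± 0.76 and 1.52 ± 0.76. With normexp the values against Myh9 were −0.99 and −0.23, so that the second changed sign. In re-adherent against adherent cells both Myh11 spots were well above background. The re-adherent one, at 33.6, was still dim beside 18.3, the dimmest signal that passed on that array. There the change of Myh11 lay below that of Myh9 (−2.35 ± 0.33) and below that of Myh10 (−2.10 ± 0.33), or at −1.22 against Myh9 with normexp. Myh9 and Myh10 themselves differed little, by 0.31 ± 0.29 into suspension, −0.06 ± 0.29 on return and 0.25 ± 0.29 between re-adherent and adherent cells.

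Myl9 and Myh11, which smooth muscle cells use together, were then set against each other in re-adherent and adherent cells, where both were well above background. Whether their products are paired in the cultures here was not tested. The change of Myl9 was 2.24 ± 0.33 above that of Myh11, a gap that narrows with normexp, under which Myh11 differed by −1.33 in place of −2.40. No difference is given for the step out of suspension, where Myh11 has only a bound. A gap also opened between the non-muscle light chains, with Myl12a below Myl12b by −2.25 ± 0.29 in suspension (4.75-fold) and by −0.15 ± 0.29 between re-adherent and adherent cells. The change of Mylk lay below that of the brighter Ppp1r12a probe by −0.75 ± 0.30 into suspension and by −0.99 ± 0.31 in re-adherent against adherent cells. The first gap depends on the probe, since the dimmer Ppp1r12a probe differed by −1.23 and Mylk by −1.53. It also depends on the background correction, since with normexp Mylk differed by −0.95 and the brighter Ppp1r12a probe by −0.71. In re-adherent against adherent cells the fall of Mylk was likewise smaller with normexp, at −0.63 in place of −1.20.

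**Figure D3:**
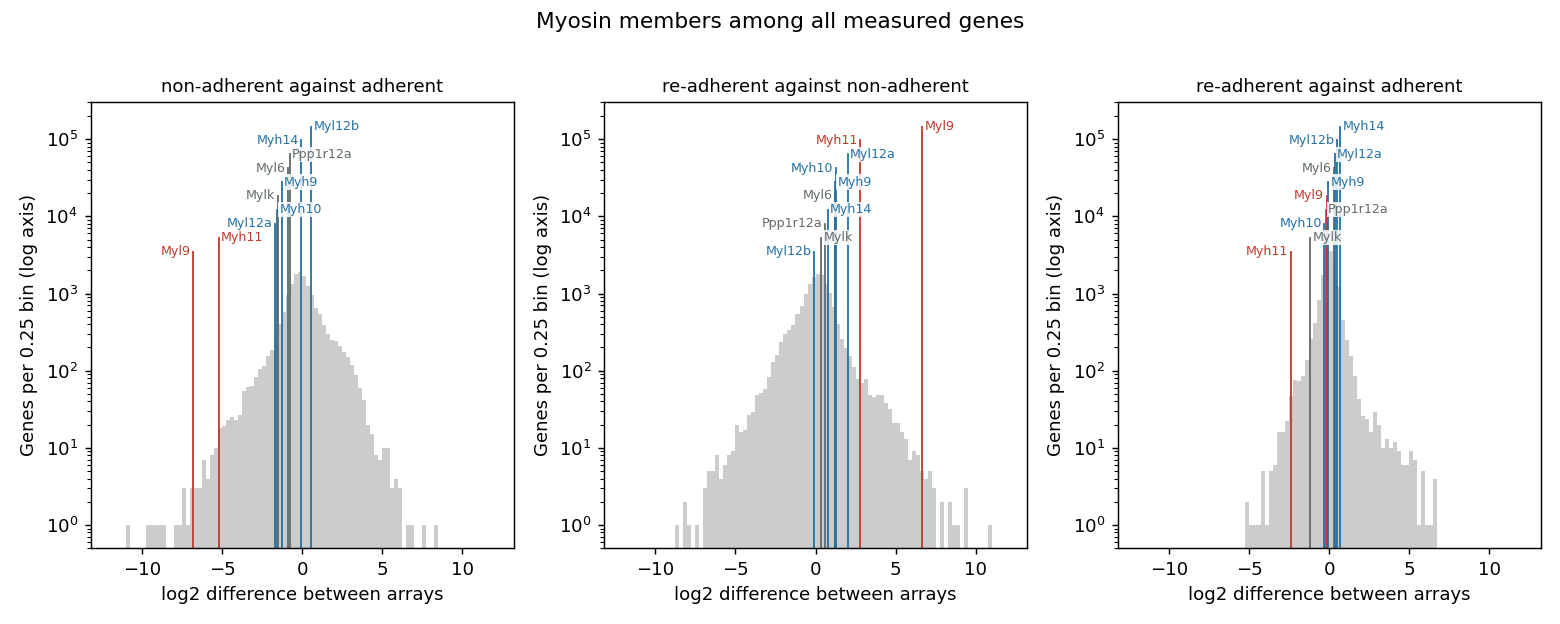
Histogram of the log2 differences of all 15393 genes in each pair of arrays (grey, bins of 0.25, number of genes on a log axis), with the 10 members marked by lines whose heights only separate the labels (red, smooth muscle isoforms; blue, non-muscle isoforms; grey, shared subunits and regulators). Myl9 and Myh11 lie in the left tail for suspension against adherent cells, at −6.80 and −5.19, and the other members lie between −1.66 and 0.58.

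Other genes that act on conventional myosin were taken as a list of 34, of which 32 were measured (Mylk3 did not rise well above background anywhere, and Mylk4 had no probe with its name). In suspension 11 of the 32 were over 2-fold lower and 2 were over 2-fold higher than in adherent cells, beside 14.7% and 17.2% of all genes, and the median was −0.36 beside −0.07 over all genes. On return 9 were over 2-fold higher and 2 over 2-fold lower, beside 15.6% and 16.3% of all genes, with a median of 0.45 beside 0.08 over all genes. Between re-adherent and adherent cells 1 was over 2-fold lower and none over 2-fold higher, beside 4.9% and 4.84% of all genes. That gene was Ppp1r12b, a targeting subunit of myosin phosphatase found in muscle, with a processed signal of 78.7, 48.6 and 29.2 in adherent, non-adherent and re-adherent cells and a log2 difference of −1.17.

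The largest fall in the list was in Ppp1r14a, which encodes CPI-17, the inhibitor through which smooth muscle keeps its myosin phosphatase off. Its processed signal was 4060 in adherent, 161 in non-adherent and 3216 in re-adherent cells. The log2 differences were −4.75 into suspension, 4.68 on return and −0.07 between re-adherent and adherent cells. Cald1, for caldesmon, which holds back the binding of myosin to actin, gave 9271, 1168 and 8584, with differences of −3.09, 3.24 and 0.15. Limch1, for a protein that activates non-muscle myosin IIA, differed by −3.04, 2.47 and −0.57.

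Dapk1, a death-associated kinase that can phosphorylate the regulatory light chain, went the other way, with a signal of 680 in adherent, 3249 in non-adherent and 599 in re-adherent cells (2.16, −2.08 and 0.08).

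**Figure D4:**
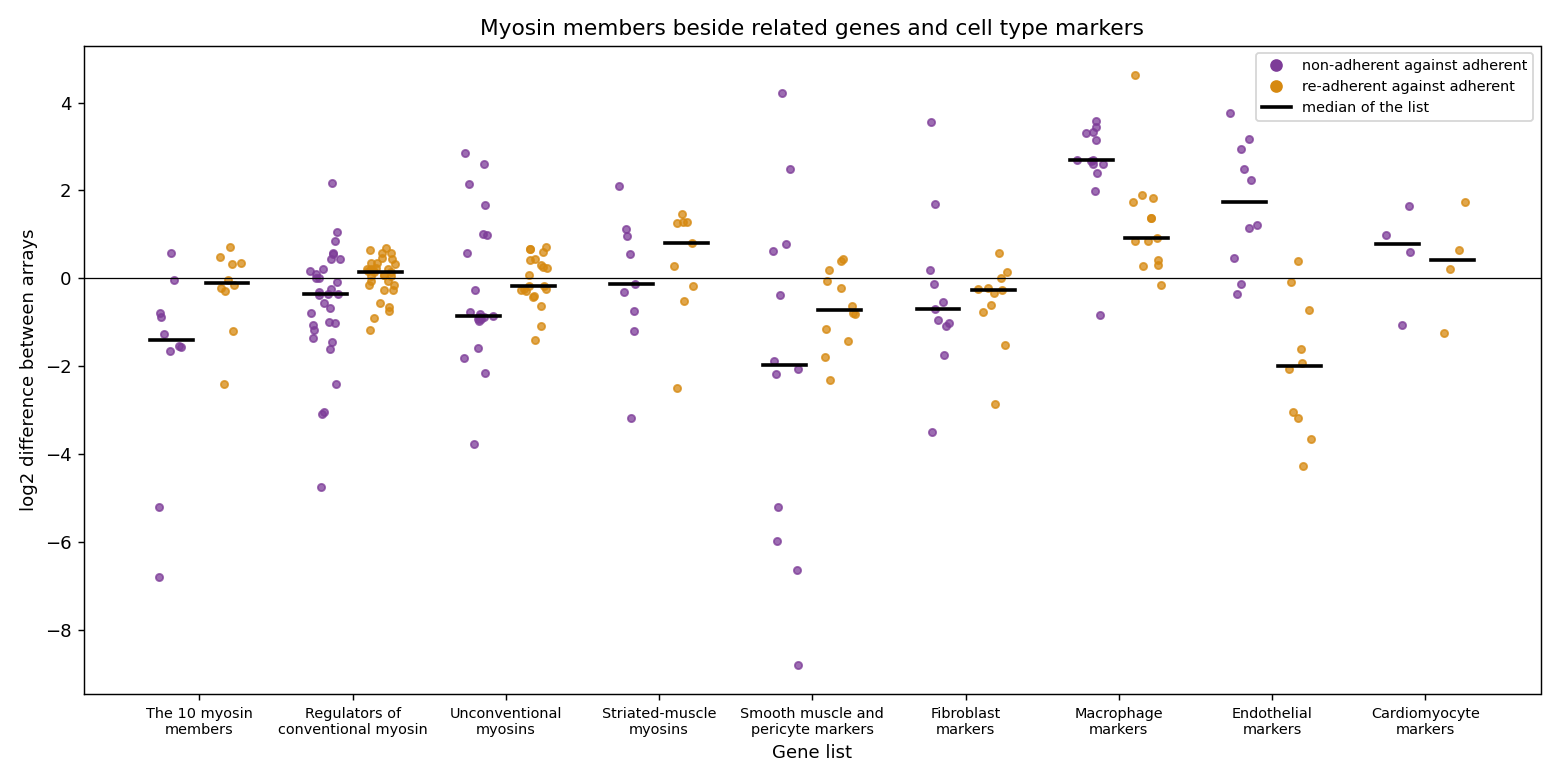
Log2 differences of single genes in non-adherent against adherent cells (purple) and re-adherent against adherent cells (orange), for the 10 members, related gene lists and cell type markers (horizontal axis, points spread sideways for visibility only). Black lines are medians, which for the members were −1.40 and −0.10 and for macrophage markers 2.68 and 0.92.

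Markers of cell types were read beside the members, because the arrays measured whole cultures in which fewer cells of a type and less RNA per cell cannot be told apart. All 11 fibroblast markers were well above background on all 3 arrays, with a summed scaled level of 1420 in adherent, 1054 in non-adherent and 1297 in re-adherent cells. Such a sum follows the brightest probes, as Col1a1, Col1a2 and Vim here and Acta2 and Tagln in the list that follows. Single markers diverged into suspension and on return: Lum by 3.56 and −6.41, Dcn by 1.69 and −3.20, and Thy1 by −3.50 and 3.27. The median of these markers was −0.70 in suspension, with 4 over 2-fold lower and 2 over 2-fold higher, where the shares of all genes, here and for the markers that follow, were 14.7% and 17.2%. All 12 smooth muscle and pericyte markers were measured, and their summed level was 1324, 26.7 and 1347 in the same order. In suspension 7 of the 12 were over 2-fold lower. Among them were Cnn1, for calponin, at −8.80, Tagln, for transgelin, at −5.98, and Acta2, for smooth muscle α-actin, at −6.64. Des and Cspg4 were also among the 7, at −2.17 and −2.06. Kcnj8 and Abcc9, markers of pericytes, were well above background in suspension alone. Rgs5 and Notch3, of the same list, differed by only 0.79 and 0.62. The list therefore did not move in a single direction, and a change in pericytes was not tested.

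Of 13 measured macrophage markers, 12 were over 2-fold higher in suspension and none was over 2-fold lower, with a summed level of 216 in adherent, 1326 in non-adherent and 446 in re-adherent cells. In re-adherent against adherent cells 6 of the 13 were over 2-fold higher and none over 2-fold lower, beside 4.84% and 4.9% of all genes. Cx3cr1 rose at both steps, by 2.67 into suspension and 1.95 on return. Ptprc, the gene of CD45, was well above background on every array, at 355, 2441 and 532, although the cells had been depleted of CD45. Of 10 endothelial markers, 7 were over 2-fold higher in suspension, and the summed level was 23.8, 38.9 and 22.3. Between re-adherent and adherent cells 7 of the 10 were over 2-fold lower, beside 4.9% of all genes, with a median of −1.99. On plastic the sum rests mainly on Kdr, the only marker higher in that pair (0.39). Tie1, Emcn and Cldn5 were not well above background in re-adherent cells. Of 10 cardiomyocyte markers, 4 were measured, with summed levels of 1.18, 1.81 and 3.37, and Tnni3 was not well above background on the arrays of cells on plastic. The part of these other cell types in the differences of the myosin genes was not tested.

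The genes most like a member in their pattern were found over the steps into suspension and back, as the distance in log2 units among 13466 genes well above background on all 3 arrays. Nearest to Myl9 was Acta2 (distance 0.18), with differences of −6.64 and 6.57, and Asb5 (0.39), Ddah1 (0.66) and Mogat2 (0.66) were also among the nearest 5. For Myh11 the search gave Cck, Dio3, Syt13, Popdc2 and Col8a1, but it used the fitted values of the dim non-adherent spot, which differ with the background correction (−2.27 and 0.93 with normexp), so no order among them is given. Around Myh9 genes were dense: Triqk, Spry4, Fam98a, Spcs3 and Spata24 lay within 0.03 of it.

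**Figure D5:**
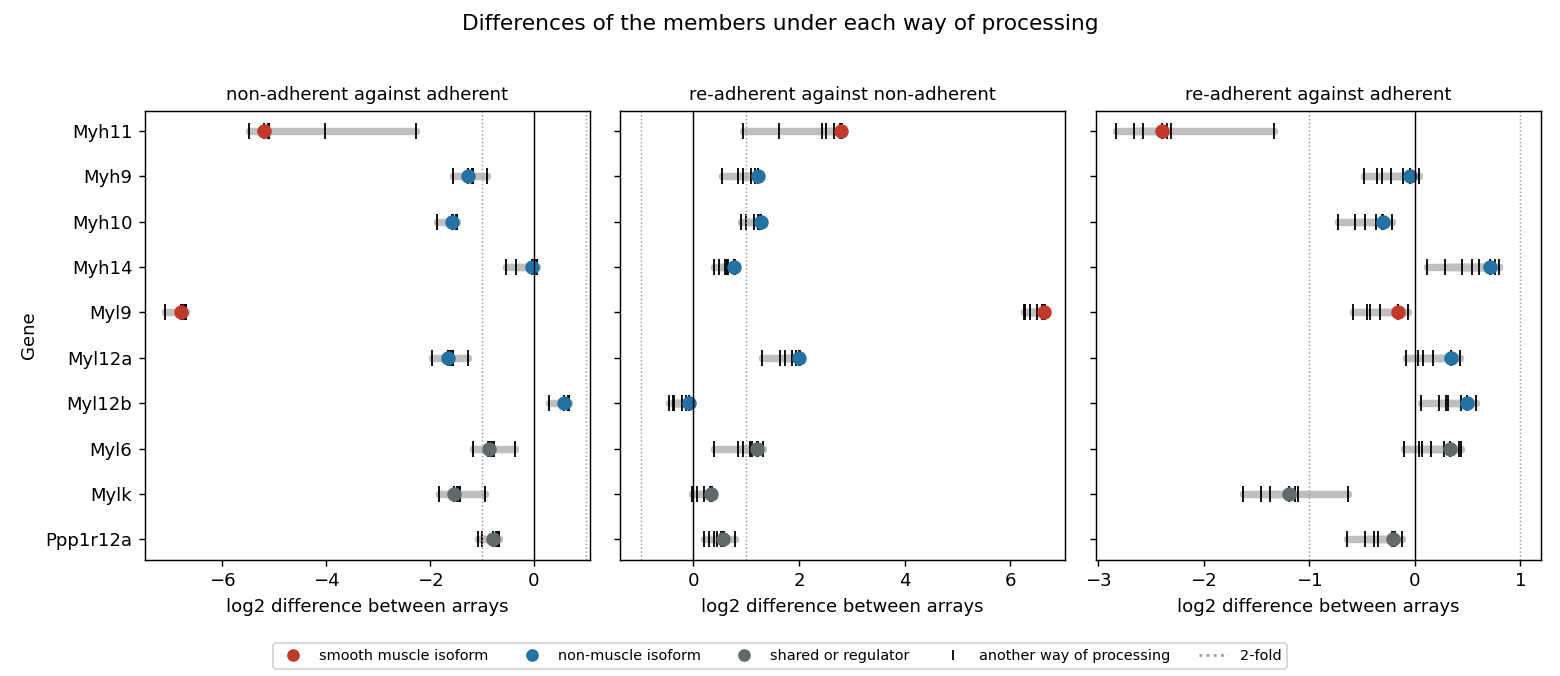
Log2 difference of each member in each pair of arrays as reported (coloured points) and under the other ways of processing (black ticks, with a grey bar over their range), with dotted lines at 2-fold. Myl9 kept between −7.10 and −6.70 in suspension against adherent cells, and Myh11 ranged from −5.49 to −2.27.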

How the data were processed

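The authors deposited spot intensity values from the scanner (Agilent Feature Extraction 10.10.1.1, background-subtracted, linear scale) for 3 one-colour mouse arrays of total RNA, and a matrix of intensity values that equalled those signals times 1 constant per array (1.52, 1.52 and 1.62). The arrays shared a slide and a scan. Here log2 signals were reduced by the 75th percentile of each array, outlier spots were left out and spots of a probe averaged (numpy 2.4.6, pandas 2.3.3). Of 37881 transcript names, 21465 matched RefSeq accessions of GRCm38.p6 without version. Probes flagged well above background by 1 array or more were kept, and the brightest stood for its gene. The array was designed on an earlier assembly, so no probe coordinates are given. Bounds used, for the dim array, the dimmest signal that passed this flag, so they hold for the software's background subtraction. Normexp (limma 3.58.1, offset 50) used median signals in place of mean signals. Spots in bright patches of the slide (a shift over 0.5 in the neighbourhood of 7 by 7 spots) were an alternative, and no member spot lay in one (shifts from −0.26 to 0.34). The calculation was tested on simulated data. With 1 array per state there is no test, and the number of arrays limits the precision.

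The members and gene lists were chosen with earlier results of these data known. The text names all members, list genes over 4-fold different between non-adherent or re-adherent and adherent cells, and the 5 genes nearest to Myl9, Myh11 and Myh9. Not every gene that meets this rule is reported here, and Ppp1r12b was named after its values were seen.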

Additional observations from a re-analysis of the deposited data

How the results depend on the processing

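Each difference was recomputed with 12 other settings (5 scalings, among them the deposited values of the authors, and 7 choices of background correction, floor, probe, filter and spots), and each count also at 4-fold. At 4-fold, 2 members in place of 6 were lower in suspension, 3 in place of 6 were higher on return (Myh11 against a dim spot and Myl12a at 4.02-fold among them), and 1 in place of 2 was lower in re-adherent than in adherent cells. Members over 2-fold higher on return were 3 without scaling and 3 with the values of the authors, and members over 2-fold lower in re-adherent cells were 1 with normexp and 1 among probes that passed background on all arrays. The change of Myh11 minus that of Myh9 was −0.99 with normexp and −2.76 with a floor under low signals in place of −3.93 into suspension, −0.23 (reversed) and 0.41 in place of 1.58 on return, and −1.99 with quantile normalization and −1.22 with normexp in place of −2.35 between re-adherent and adherent cells. The normexp and floor settings raise the dim Myh11 signal by construction, and Myh11 gives no value among probes that passed on all arrays. For the other moved values the cause was not tested. The other 134 values of counts and isoform comparisons moved by less than the technical error, or by at most 1.5 times for a count. Many of the isoform comparisons among them could not move, because scaling by 1 constant per array cancels between genes.

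Scaling shifted all genes together. The median over all genes was −0.28 on return without scaling and −0.20 with the values of the authors (0.08 as reported), and −0.37 both into suspension and between re-adherent and adherent cells with spike-in scaling. On return, 23.4% of genes were over 2-fold lower and 9.90% higher without scaling, and 21.2% and 11.0% with the values of the authors, beside 16.3% and 15.6% as reported. With spike-in scaling 22.5% were lower and 13.2% higher in suspension, and 11.3% and 2.42% in re-adherent cells. No paired analysis was possible because each state had 1 array, and for the same reason none could be left out.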

Other observations

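The unconventional myosins, a mixed group outside class II of which many move membranes or vesicles, were also read. Of 24 listed, 21 were measured. Against adherent cells 4 of these were lower and 5 higher by over 2-fold in suspension, beside 14.7% and 17.2% of all genes. Their median was −0.86, beside −0.07 over all genes. Some of the falls rest on dim spots, as Myo3a (12.6 in suspension, not well above background) and Myo6 (15.6). Myo1h gave a processed signal of 277 in adherent, 21.6 in non-adherent and 205 in re-adherent cells, with log2 differences of −3.78 into suspension and 3.61 on return. It was lowest in suspension and near the adherent level after return.

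Myo1f and Myo1g, class I myosins known from blood cells, were highest in suspension. Myo1f gave 4132 in adherent, 31819 in non-adherent and 5601 in re-adherent cells (2.85 into suspension, −2.14 on return), and Myo1g gave 4582, 29930 and 6066 (2.61 and −1.94). Myo7a differed by 2.14 and −1.69. Macrophage markers were higher over the same step, with 12 of 13 over 2-fold higher, and their part in these differences was not tested.

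Among 18 genes listed for striated-muscle myosin, of which Mybpc3 encodes a myosin-binding protein and not a myosin chain, 9 were not well above background on any array. Myl4, the atrial and embryonic essential light chain, was the 1 gene of the list with a signal above 100, with 2384 in adherent, 1111 in non-adherent and 3452 in re-adherent cells, a log2 difference of −1.20 into suspension and 2.00 on return. Myh1 was not well above background in suspension, and was at least 1.96-fold higher in adherent cells. Mybpc3 was not well above background in re-adherent cells, and was at least 2.64-fold higher in adherent cells.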
